A study of Homo sapiens with 8 samples.

Results

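The genes described are the receptors EGFR, ERBB2 and ERBB3, 6 genes for ligands of EGFR (TGFA, HBEGF, AREG, EREG, EPGN and BTC), and ERRFI1, which encodes an inhibitor of the same receptors. They were chosen by gene symbol with earlier results of these tumors known, and all 10 were found among the 18164 genes of the table. All 10 also reached the level required for the test, as did 13358 genes in all. The samples were 8 tumors of HCC1937, a human cell line of triple-negative breast cancer, so every tumor came from the same line. The cells were injected into a mammary fat pad of immunodeficient NCG mice (NOD/ShiLtJGpt-Prkdcem26Cd52Il2rgem26Cd22/Gpt), which lack T, B and natural killer cells but keep mouse stroma and myeloid cells. Treatment began at a tumor volume of 100 to 150 cubic millimetres. The labels put 4 tumors in a group given 500 mg/kg/day of nicotinamide mononucleotide (NMN), from which cells make NAD+, and 4 in a group given Vehicle. They are called NMN 1 to 4 and Vehicle 1 to 4. Ages are not given in the sources used here, nor whether each tumor came from a separate mouse, so the tests measure the spread between these tumors. The comparison asks how RNA levels of whole tumors differed with NMN.

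Receptors of the ERBB family are tyrosine kinases of the cell surface. A bound ligand brings EGFR into pairs with itself or with a sister receptor, and the paired kinases then signal through RAS and ERK, PI3K and AKT, and PLC gamma. ERBB2 has no known ligand of its own and serves as a partner, while ERBB3 binds neuregulins and has a weak kinase, so it depends on a partner. The ligands are made as membrane proteins and are released by proteases such as ADAM17. ERRFI1, also called MIG6, is induced when growth factors or other stimuli act on the cell, binds the kinase domain of the receptors and shuts them off, which closes a feedback loop. EGFR is often abundant in basal-like breast tumors.

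Of the 10 genes, ERRFI1 was the gene whose NMN and Vehicle tumors did not overlap. Its mean level was 2.40-fold higher in the NMN tumors. The receptors had almost the same mean in both groups. The ligand genes and the receptors both varied more among Vehicle tumors than among NMN tumors. The share of all genes that did so was not computed. No gene of the table passed the test of NMN against Vehicle, so none of these differences is a called change.

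The DNA just before the start site of ERRFI1 is shown because that gene had the widest separation of the groups. The same stretch of the ligand genes HBEGF, EPGN and EREG is shown because their levels were highest in the same tumor, Vehicle 4. That of AREG is shown because it lies beside EPGN and EREG on chromosome 4. EGFR was also highest in Vehicle 4, and its windows are not shown. Sequences are from RefSeq on GRCh38.p14, 250 bases upstream of the annotated start, written in the direction of transcription. The windows are chr1:8026310-8026559 for ERRFI1 (minus strand), chr5:140346604-140346853 for HBEGF (minus strand), chr4:74308220-74308469 for EPGN (plus strand), chr4:74364895-74365144 for EREG (plus strand) and chr4:74444886-74445135 for AREG (plus strand). Capitals mark matches, on either strand, to TGACGTCA (the cAMP response element, CRE), TGANTCA (AP-1), either of ACGTG and its variant GCGTG (the core of the hypoxia response element), GGGCGG (GC box), and TATAAA as well as TATATA (both called TATA here).
ERRFI1: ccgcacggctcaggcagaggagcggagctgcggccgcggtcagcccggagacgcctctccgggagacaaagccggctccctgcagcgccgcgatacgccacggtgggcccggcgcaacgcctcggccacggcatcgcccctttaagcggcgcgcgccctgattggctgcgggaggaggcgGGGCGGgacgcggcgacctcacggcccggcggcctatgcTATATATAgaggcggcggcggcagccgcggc
HBEGF: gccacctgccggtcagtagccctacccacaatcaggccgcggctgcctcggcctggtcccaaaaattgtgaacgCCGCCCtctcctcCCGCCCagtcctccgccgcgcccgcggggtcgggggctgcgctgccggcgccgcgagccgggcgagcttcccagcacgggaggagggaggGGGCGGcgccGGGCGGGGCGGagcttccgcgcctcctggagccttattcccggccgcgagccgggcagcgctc
EPGN: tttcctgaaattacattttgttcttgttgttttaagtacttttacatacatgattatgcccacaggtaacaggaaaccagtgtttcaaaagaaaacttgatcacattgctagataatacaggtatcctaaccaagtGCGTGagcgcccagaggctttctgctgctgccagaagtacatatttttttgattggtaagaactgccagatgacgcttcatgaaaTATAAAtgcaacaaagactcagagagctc
EREG: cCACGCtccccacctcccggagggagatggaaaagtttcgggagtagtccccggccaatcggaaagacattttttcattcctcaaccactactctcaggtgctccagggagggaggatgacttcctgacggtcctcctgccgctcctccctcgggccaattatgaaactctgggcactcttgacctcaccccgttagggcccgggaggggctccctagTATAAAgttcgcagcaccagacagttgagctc
AREG: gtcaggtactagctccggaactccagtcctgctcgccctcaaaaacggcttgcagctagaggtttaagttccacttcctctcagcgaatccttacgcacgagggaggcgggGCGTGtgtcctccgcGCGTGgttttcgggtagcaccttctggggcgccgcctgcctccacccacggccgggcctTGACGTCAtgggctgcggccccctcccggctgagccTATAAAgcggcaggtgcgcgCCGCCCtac
The ERRFI1 window held 1 GC box and a TATATATA run, which gives 2 overlapping TATA matches, between 31 and 24 bases before the start. It held no match to the CRE, AP-1 or hypoxia letters. The HBEGF window held 5 GC boxes, of which 2 overlap, and no TATA match. EPGN, EREG and AREG each had TATAAA between 32 and 24 bases before the start and at least 1 GCGTG. AREG was the single one of the 5 with the palindromic CRE, at 65 to 58 bases before the start. Among 35116 windows of the same length, 12.8% held a TATA match, 42.6% a GC box, 43.2% a hypoxia core, 6.57% an AP-1 match and 1.65% the CRE. The GC content was 75.2% for ERRFI1, 76.4% for HBEGF, 38% for EPGN, 58% for EREG and 65.2% for AREG, against a median of 58% over all windows. A window was found for 9 of the 10 genes, and ERBB3 had none. These matches describe letters and say nothing of which factors bind.

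Levels are given as TPM (transcript abundances scaled by transcript length and by library), so that genes can be compared within a tumor. Every log2 fold change is NMN over Vehicle, was computed from log2(TPM + 1), and is given ± its standard error. Such values understate the change of genes with low values. The test was limma's moderated linear model over all tested genes with Benjamini-Hochberg adjustment, and 0 of 13358 genes, 0%, passed at an adjusted p under 0.05. Without adjustment, 927 genes, 6.94%, had a p under 0.05, of which those higher in NMN tumors made up 4.79% and those lower 2.15% of all tested. Mouse cells are also present in such tumors, and how their reads were kept from human genes is not stated in the sources used here, so any level may hold some of them. In bulk tumors, fewer cells of a type and less RNA per cell cannot be told apart.

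The label of the line was checked against its defining markers. The progesterone receptor gene PGR was at 0 TPM in the NMN tumors and at 0 to 0.02 TPM in the Vehicle tumors, and the estrogen receptor gene ESR1 was at 3.37 to 6.00 TPM in the NMN tumors and 4.04 to 5.72 TPM in the Vehicle tumors. ERBB2 RNA was not low: its mean exceeded that of 91.7% of genes in the table. Triple-negative status is assigned from protein and gene copy tests, which these data do not hold. The 8 epithelial markers summed to between 10400 and 13100 TPM in the NMN tumors and between 9750 and 18300 TPM in the Vehicle tumors. The 12 skeletal muscle genes summed to 51.2, 30.6 and 44.0 TPM in NMN 1 to 3 and 656 TPM in NMN 4, against 440 to 2580 TPM in the Vehicle tumors. The 9 fibroblast genes, of which 5 were under 1 TPM in every tumor, summed to 118 to 233 TPM in the NMN tumors and 188 to 286 TPM in the Vehicle tumors. Schwann cell genes, which include markers of a cell type rich in ERBB3, summed to at most 7.89 TPM in the NMN tumors and 7.92 TPM in the Vehicle tumors. The endothelial, myeloid and adipocyte lists summed to 6.10 to 8.43, 33.4 to 73.4 and 15.8 to 217 TPM in the NMN tumors, and to 5.11 to 6.42, 35.2 to 61.1 and 9.55 to 98.7 TPM in the Vehicle tumors.

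**Figure D1:**
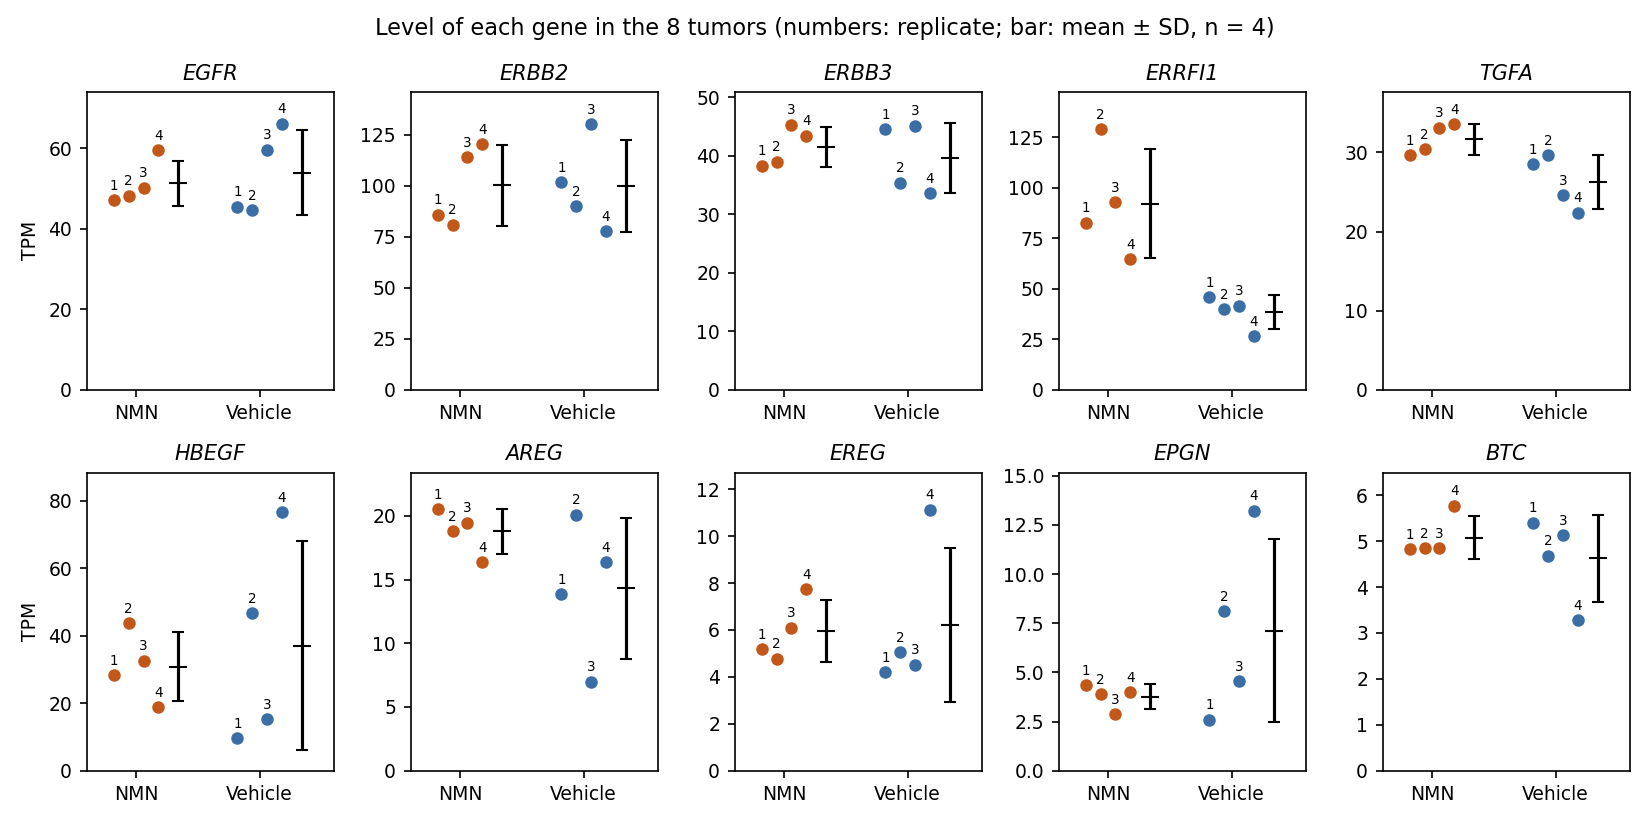
Level in TPM (y axis) of each gene in every tumor, with NMN tumors at the left and Vehicle tumors at the right of each panel. Points are single tumors numbered by replicate, and bars are the mean ± SD of 4 tumors. ERRFI1 is the panel in which the groups do not overlap, and HBEGF shows the widest spread among Vehicle tumors, between 9.58 and 76.6 TPM.

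Among the receptors, ERBB2 was the most abundant, at 85.7, 80.9, 114 and 120.3 TPM in NMN 1 to 4, against 102, 89.8, 130.0 and 77.6 TPM in Vehicle 1 to 4. The groups overlapped almost completely, and Vehicle tumors held both the highest and the lowest value. The mean was 100.2 ± 19.8 TPM in the NMN tumors and 99.8 ± 22.4 TPM in the Vehicle tumors (SD, n = 4 each). ERBB2 lies on chromosome 17 (39687914 to 39730426, plus strand), and its exons overlap those of MIEN1 by 571 bases and of PGAP3 by 194 bases on the opposite strand. Whether counting used the strand is not stated in the sources used here, and reads in those overlaps are uncertain.

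EGFR (chromosome 7, 55019021 to 55211628, plus strand) was at 47.1, 48.2, 50.2 and 59.5 TPM in NMN 1 to 4. In Vehicle 1 to 4 it was at 45.5, 44.6, 59.6 and 66.1 TPM. NMN 4, Vehicle 3 and Vehicle 4 formed the upper end, so both groups held high and low tumors. The log2 fold change was -0.06 ± 0.14, and its 95% interval reached from -0.37 to 0.25. That interval covers changes up to those sizes in either direction and does not show that the groups are alike.

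ERBB3 (chromosome 12, 56076799 to 56103505, plus strand) was at 38.3, 39.0, 45.3 and 43.5 TPM in the NMN tumors and at 44.5, 35.4, 45.1 and 33.6 TPM in the Vehicle tumors. It had the narrowest range of the 10 genes, with the highest tumor 1.35-fold above the lowest. Vehicle 2 and Vehicle 4 were the low ones. This gave a log2 fold change of 0.07 ± 0.12, and its 95% interval reached from -0.20 to 0.35. ERBB2 and ERBB3 varied together over the 8 tumors (Pearson's r = 0.86 on log2 values, and 0.81 without Vehicle 4), as a description of points that share their libraries. Over the 8 tumors it was the highest r of all pairs of the 10 genes, and ERBB3 with EPGN was as strong in the negative direction (r = -0.86).

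The fourth receptor gene, ERBB4, was nearly silent, at most 0.02 TPM in the NMN tumors and 0.07 TPM in the Vehicle tumors. The summed level of EGFR, ERBB2 and ERBB3 was 193 ± 27.6 TPM in the NMN tumors and 193 ± 29 TPM in the Vehicle tumors. ERBB2 exceeded EGFR in all 8 tumors, by 1.68- to 2.27-fold in the NMN tumors and by 1.17- to 2.24-fold in the Vehicle tumors. Vehicle 4 had the lowest ERBB2 to EGFR ratio, 1.17.

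ERRFI1, the feedback inhibitor (chromosome 1, 8004404 to 8026308, minus strand), was at 82.5, 129, 92.7 and 64.4 TPM in NMN 1 to 4. It was at 45.8, 39.8, 41.6 and 26.4 TPM in Vehicle 1 to 4. Every NMN tumor lay above every Vehicle tumor, with NMN 2 the highest, NMN 4 the lowest of its group and Vehicle 4 the lowest of all. Groups did not overlap in 3.05% of tested genes, 2.08% with all NMN tumors higher and 0.966% with all lower. The gene was listed with this difference already known, so the separation is a description and nothing is read from that share.

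The mean of ERRFI1 was 92.1 ± 27.1 TPM in the NMN tumors and 38.4 ± 8.39 TPM in the Vehicle tumors. This made a log2 fold change of 1.22 ± 0.21, with a 95% interval between 0.76 and 1.68. Its adjusted p was 0.221 by limma, and its rank by log2 fold change was 37 of 13358. Over 18 other settings the log2 fold change ran from 1.05 to 1.38 and the adjusted p from 0.0206 to 0.630. The adjusted p was under 0.05 in 2 of them: without NMN 4, at a log2 fold change of 1.38 (adjusted p = 0.0206), and with estimated library weights, at 1.11 (adjusted p = 0.0460). In each of these 2 settings 54 of the 13358 tested genes passed, so the call was not particular to ERRFI1. Leaving out the NMN tumor with the lowest ERRFI1 also raises the difference by itself. NMN 4, with the lowest ERRFI1 of its group, was the NMN tumor with a muscle sum (656 TPM) within the range of the Vehicle tumors, and the part of muscle content in the ERRFI1 difference was not tested. An antisense gene, AL034417.4, overlaps ERRFI1 exons by 155 bases. The antisense gene EGFR-AS1 likewise overlaps EGFR exons by 186 bases, and AC034102.2 overlaps ERBB3 exons by 31 bases on the same strand. As for ERBB2, reads in those overlaps are uncertain.

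Set against its main target, ERRFI1 amounted to 1.75, 2.67, 1.85 and 1.08 transcripts per EGFR transcript in NMN 1 to 4. In Vehicle 1 to 4 the ratio was 1.01, 0.891, 0.698 and 0.400. The groups did not overlap, although NMN 4 and Vehicle 1 lay close together. Against the sum of the 3 receptors the ratio was 0.289 to 0.767 in the NMN tumors and 0.149 to 0.239 in the Vehicle tumors. The ERRFI1 level enters every one of these ratios, so they are not independent of it.

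**Figure D2:**
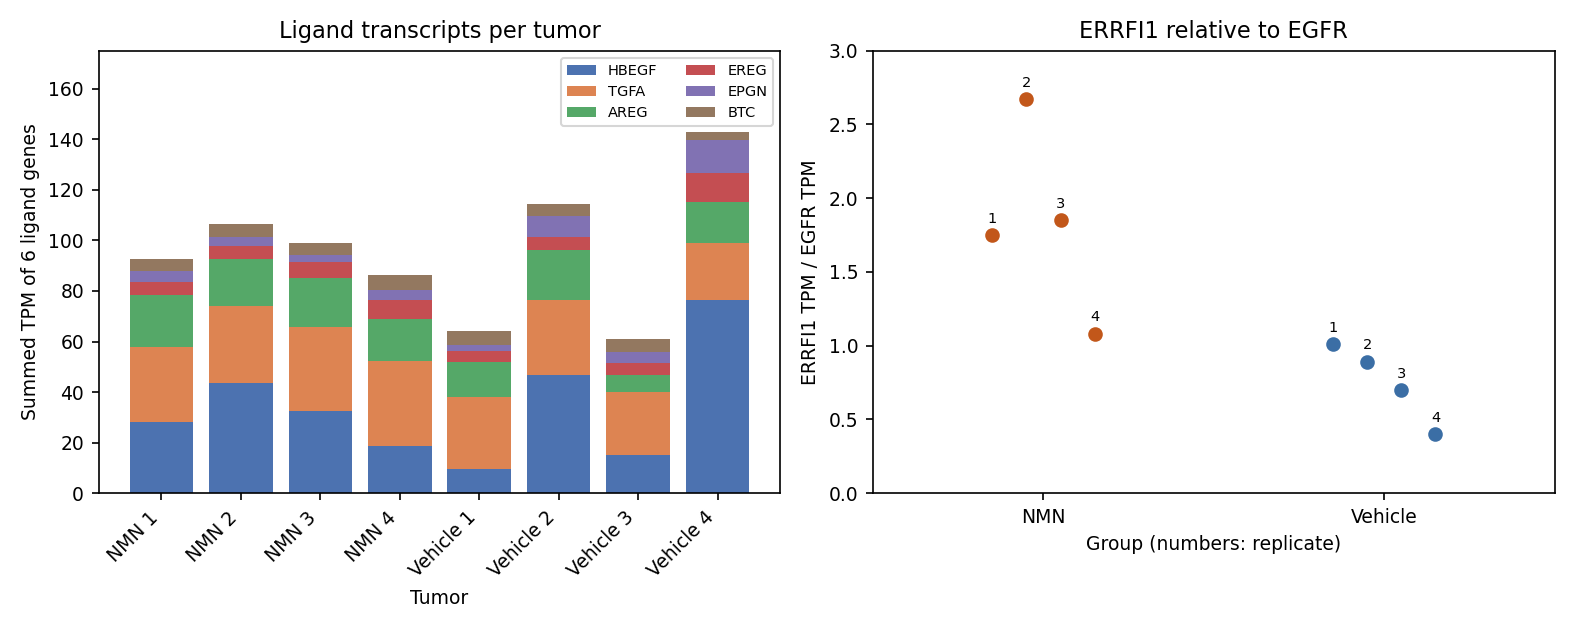
Left, summed TPM of 6 ligand genes (y axis) in each tumor (x axis), stacked by gene, with NMN tumors left of Vehicle tumors. Right, ERRFI1 TPM divided by EGFR TPM (y axis) in each group, with points numbered by replicate. The ligand sum lies between 86.2 and 106 TPM in the NMN tumors and between 61.1 and 143 TPM in the Vehicle tumors, and the ratio is at least 1.08 in each NMN tumor and at most 1.01 in each Vehicle tumor.

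The genes most like ERRFI1 over the 8 tumors, among 10809 with a mean of at least 5 TPM, were LDB1, LRRC27, KDM3A, INSIG2 and VGLL1. Their Pearson correlations with ERRFI1 on log2 values ran from 0.952 to 0.962, and from 0.763 to 0.948 after the group means were removed. KDM3A, a histone demethylase, was at 64.8, 88.2, 74.5 and 46.6 TPM in NMN 1 to 4, against 49.4, 45.9, 45.3 and 36.1 TPM in Vehicle 1 to 4. It had the highest correlation of the 5 once group means were removed, 0.948. VGLL1, a partner of TEAD factors, was at 116 to 162 TPM in the NMN tumors and 73.9 to 97.4 TPM in the Vehicle tumors. The groups did not overlap for VGLL1, LDB1, LRRC27 and INSIG2, and they overlapped for KDM3A. All were picked for following ERRFI1, so their separation adds no support. LDB1 (adapter of LIM-domain factors) and INSIG2 (a regulator of sterol synthesis) had log2 fold changes of 0.22 and 0.41, and LRRC27 one of 0.44. These correlations come from a search over many genes with 8 points.

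TGFA, a ligand of EGFR (chromosome 2, 70447280 to 70554193, minus strand), was at 29.6, 30.4, 33.2 and 33.6 TPM in NMN 1 to 4. In Vehicle 1 to 4 it was at 28.6, 29.7, 24.6 and 22.4 TPM. NMN 2 to 4 lay above every Vehicle tumor, and NMN 1 lay just under Vehicle 2. NMN over Vehicle gave a log2 fold change of 0.27 ± 0.12, and its 95% interval reached from 0.0047 to 0.53 (limma adjusted p = 0.711). It was the steadiest ligand, with 1.5-fold between the highest and the lowest tumor.

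HBEGF, the heparin-binding ligand (chromosome 5, 140332843 to 140346631, minus strand), was at 28.3, 43.6, 32.6 and 18.8 TPM in NMN 1 to 4. It was at 9.58, 46.6, 15.3 and 76.6 TPM in Vehicle 1 to 4. Vehicle 2 and Vehicle 4 exceeded every NMN tumor, and Vehicle 1 and Vehicle 3 lay under every NMN tumor. The Vehicle tumors therefore spanned 8.0-fold and the NMN tumors 2.32-fold. The mean was 30.8 ± 10.3 TPM with NMN and 37.0 ± 31.0 TPM with Vehicle, and the log2 fold change of 0.11 ± 0.52 had an interval between -1.03 and 1.26, which allows a change of more than 2-fold in either direction. The difference in mean TPM was negative and that in mean log2 values positive for this gene. Without Vehicle 4 the log2 fold change was 0.60, and without Vehicle 1 it was -0.36.

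AREG (amphiregulin), EREG (epiregulin), EPGN (epigen) and BTC (betacellulin) lie together on chromosome 4, in a span of 486 kb with no other protein-coding gene in the annotation used. From EPGN (74308473 to 74315307) to EREG (74365143 to 74388751) the gap is 49.8 kb, and from EREG to AREG (74445134 to 74455009) it is 56.4 kb. These 3 are on the plus strand. BTC (74744759 to 74794686) is on the minus strand, 290.0 kb beyond AREG. The neighbours did not share 1 pattern over the tumors.

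AREG was at 20.5, 18.8, 19.5 and 16.4 TPM in the NMN tumors and at 13.8, 20.1, 6.99 and 16.4 TPM in the Vehicle tumors. Vehicle 3 was lowest by a wide margin, and Vehicle 2 matched the upper NMN tumors. The log2 fold change was 0.45 ± 0.25, and its 95% interval reached from -0.10 to 1.00. Without Vehicle 3 the log2 fold change was 0.17.

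EREG was at 5.18, 4.77, 6.10 and 7.75 TPM in the NMN tumors and at 4.19, 5.06, 4.51 and 11.1 TPM in the Vehicle tumors. Vehicle 4 stood above all other tumors. This gave a log2 fold change of 0.02 ± 0.26, and its 95% interval reached from -0.55 to 0.59.

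EPGN was at 4.34, 3.88, 2.87 and 4.0 TPM in the NMN tumors and at 2.59, 8.10, 4.56 and 13.2 TPM in the Vehicle tumors. Vehicle 2, 3 and 4 lay above every NMN tumor, and Vehicle 1 was the lowest of all. NMN over Vehicle gave a log2 fold change of -0.59 ± 0.35, the lowest of the 10 genes, and its 95% interval reached from -1.35 to 0.17 (limma adjusted p = 0.839). Without Vehicle 4 the log2 fold change was -0.26, and without Vehicle 1 it was -0.92.

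BTC was at 4.83, 4.85, 4.84 and 5.77 TPM in the NMN tumors and at 5.4, 4.68, 5.13 and 3.28 TPM in the Vehicle tumors. Vehicle 4, highest for the other 2 low ligands EREG and EPGN, was lowest for BTC. The log2 fold change was 0.12 ± 0.17, and its 95% interval reached from -0.24 to 0.49.

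The 6 ligand genes together came to 96.1 ± 8.60 TPM in the NMN tumors and 95.6 ± 39.9 TPM in the Vehicle tumors. The NMN tumors clustered within the wide Vehicle range. HBEGF supplied 21.8% to 41.0% of the sum in the NMN tumors and 14.9% to 53.6% in the Vehicle tumors, and TGFA supplied 28.6% to 38.9% with NMN and 15.6% to 44.5% with Vehicle. In Vehicle 4 HBEGF was the main ligand transcript, and in Vehicle 1 and Vehicle 3 it was TGFA. Ligand transcripts per receptor transcript ran from 0.386 to 0.633 in the NMN tumors and from 0.260 to 0.806 in the Vehicle tumors.

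**Figure D3:**
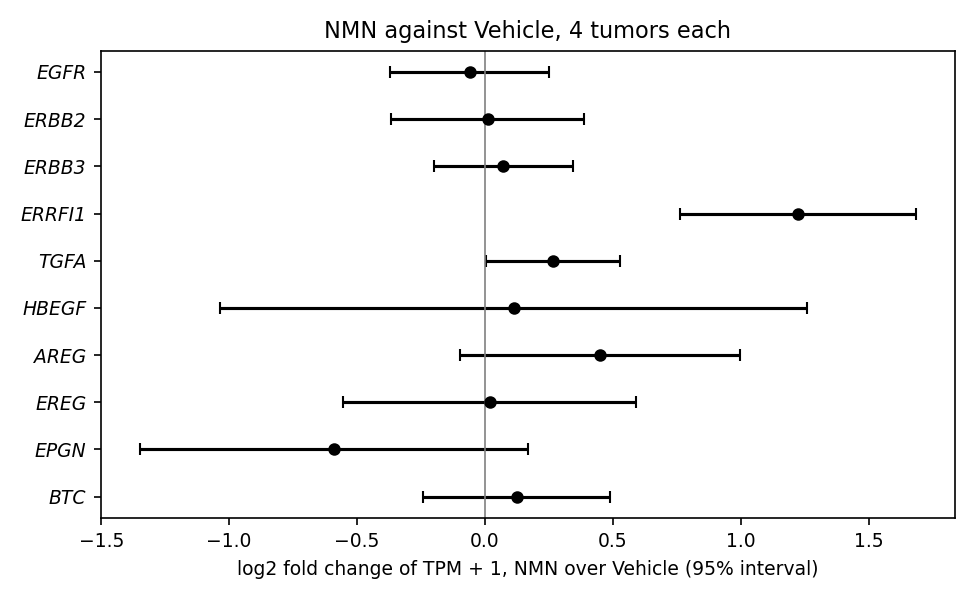
Log2 fold change of TPM + 1, NMN over Vehicle (x axis), of each gene (y axis), with points at the limma estimate and bars for the 95% interval (4 tumors a group). The interval of ERRFI1, from 0.76 to 1.68, lies apart from 0, that of TGFA starts at 0.0047, and the other 8 include 0. No adjusted p was under 0.05.

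Across the 10 genes, NMN tumors had the higher mean log2 level in 8 and the lower in 2, where 51% of all tested genes had the higher. The median log2 fold change was 0.09, beside 0.00 over all tested genes. At an unadjusted p under 0.05 stood 2 genes, ERRFI1 and TGFA, beside the 6.94% of all genes given above. Apart from ERRFI1 the adjusted p-values ran from 0.711 to 0.998. NMN 4 lay within the Vehicle range for 7 of the 10 genes, and for 62.3% of all tested genes.

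The order of the levels was read within tumors, with both groups pooled. From highest to lowest mean over 8 tumors it was ERBB2 (100.0 TPM), ERRFI1 (65.3), EGFR (52.6), ERBB3 (40.6), HBEGF (33.9), TGFA (29), AREG (16.6), EREG (6.09), EPGN (5.45) and BTC (4.85). Each of the 9 neighbouring pairs was compared by an exact two-sided sign-flip permutation test over the 8 tumors, adjusted over the pairs. Of these, 3 passed, each with the same direction in 8 of 8 tumors and the smallest p the test allows, 0.00781 (adjusted p = 0.0234). EGFR exceeded ERBB3 by 0.36 ± 0.27 on the log2(TPM + 1) scale (mean ± SD, n = 8), TGFA exceeded AREG by 0.82 ± 0.41, and AREG exceeded EREG by 1.31 ± 0.55. For the other 6 pairs no order could be called. ERBB2 lay above ERRFI1 in 7 of 8 tumors, and NMN 2 was the exception (adjusted p = 0.0879 by exact permutation). Without NMN 2 the adjusted p by the same test was 0.0352. Leaving out the only tumor of the other direction fixes that p at its smallest, so it is no support for the order. By group mean, the place of ERRFI1 differed between the groups. Its mean was 92.1 TPM in the NMN tumors, above EGFR (51.2 TPM). In the Vehicle tumors its mean was 38.4 TPM, under EGFR (53.95 TPM) and ERBB3 (39.7 TPM). By tumor, ERRFI1 still lay above ERBB3 in Vehicle 1 (45.8 against 44.5 TPM) and Vehicle 2 (39.8 against 35.4 TPM). In Vehicle 1 it also lay just above EGFR (45.5 TPM). In each of the 6 pairs without a called order, the 2 genes changed places between tumors. ERBB3 and HBEGF, and EREG and EPGN, are among them, with the first gene higher in 5 of 8 tumors. HBEGF lay above TGFA in only 3 of 8 tumors, and EPGN above BTC in only 2 of 8. For those pairs the order of the mean TPM thus ran against most tumors.

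**Figure D4:**
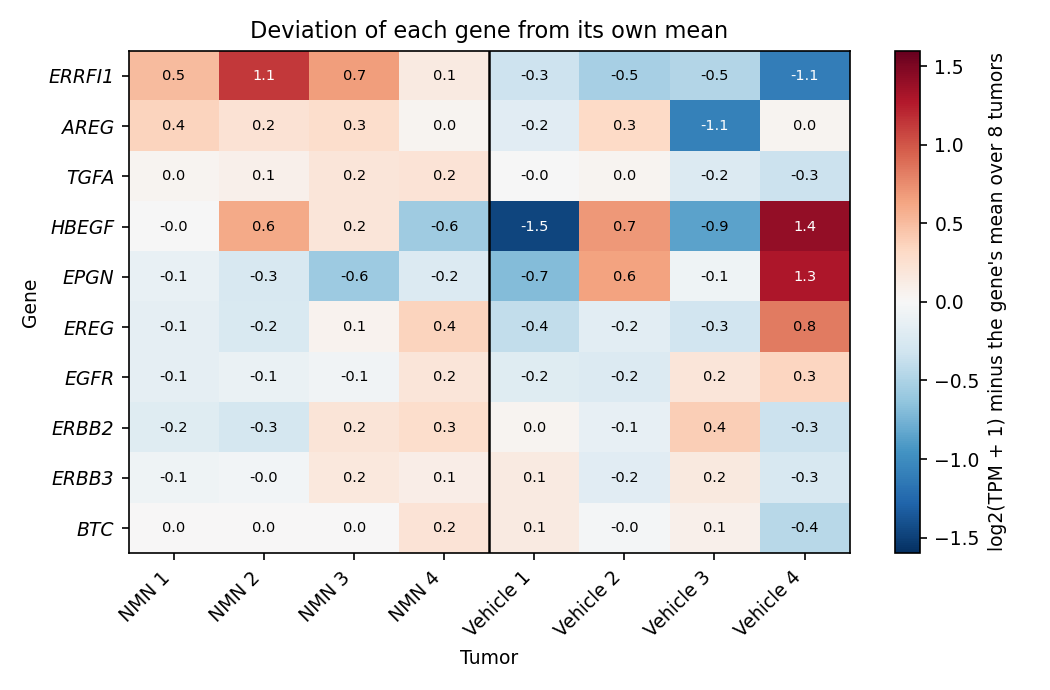
Deviation of log2(TPM + 1) from the gene's mean over 8 tumors (color and printed value) for each gene (rows) and tumor (columns), with NMN tumors left of the line and Vehicle tumors right of it. Vehicle 4 has the highest values of HBEGF, EPGN, EREG and EGFR and the lowest of ERRFI1, ERBB2, ERBB3, TGFA and BTC.

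Among the Vehicle tumors HBEGF and EPGN were high where ERBB3 and BTC were low. Vehicle 4 was the highest and Vehicle 1 the lowest for HBEGF and EPGN. Over 8 tumors HBEGF correlated with EPGN at r = 0.74, with ERBB3 at -0.82 and with BTC at -0.81 (Pearson, log2 values). They are among the strongest correlations of all pairs of the 10 genes. EPGN with ERBB3 (r = -0.86) and with BTC (r = -0.83) were stronger. Without Vehicle 4 the correlations with HBEGF were 0.54 for EPGN, -0.72 for ERBB3 and -0.75 for BTC. Among the NMN tumors alone they were -0.26, -0.39 and -0.84 in the same order of genes, against 0.99, -0.97 and -0.89 among the Vehicle tumors, each over 4 tumors. The pairings of HBEGF with EPGN and with ERBB3 thus come largely from Vehicle tumors. Points share their libraries, and TPM of a library sum to a fixed total.

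Epithelial markers also differed between tumors, and their part in the levels of the 10 genes was not tested. KRT8, a luminal keratin gene, was at 879, 707, 909 and 841 TPM in NMN 1 to 4, against 542, 315, 537 and 265 TPM in Vehicle 1 to 4. Like ERRFI1 it did not overlap between the groups, with a log2 fold change of 1.07 ± 0.21 (limma adjusted p = 0.221). KRT19, also a luminal keratin gene, was at 299 and 288 TPM in Vehicle 2 and Vehicle 4, and it was at 586 TPM or more in the other 6 tumors. The adhesion molecule gene EPCAM was at 93.9 and 91.0 TPM in these Vehicle tumors, against at least 118 TPM elsewhere. KRT5, a basal keratin gene, was at 4648 and 6488 TPM there and at most 3489.7 TPM in the others. KRT5 did not follow HBEGF in every tumor. NMN 2, with 43.6 TPM of HBEGF beside 46.6 TPM in Vehicle 2, had the lowest KRT5 of the 8, 2817 TPM. The keratin gene KRT17 lay closer to HBEGF, lowest in Vehicle 1 and highest in Vehicle 4. It was at 2866, 2751, 2643 and 1898 TPM in NMN 1 to 4. In Vehicle 1 to 4 it was at 1433, 2790, 1974 and 3613 TPM. KRT18, also a keratin gene, was at 574 to 721 TPM in the NMN tumors and 376 to 576 TPM in the Vehicle tumors. KRT14, another basal keratin gene, was at 2704 to 4123 TPM in the NMN tumors and at 2603 to 3033 TPM in Vehicle 1 to 3, with 6953 TPM in Vehicle 4. CDH1, the E-cadherin gene, was at 131 to 195 TPM in the NMN tumors and 168 to 187 TPM in the Vehicle tumors, where Vehicle 2 and Vehicle 4 did not stand together.

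**Figure D5:**
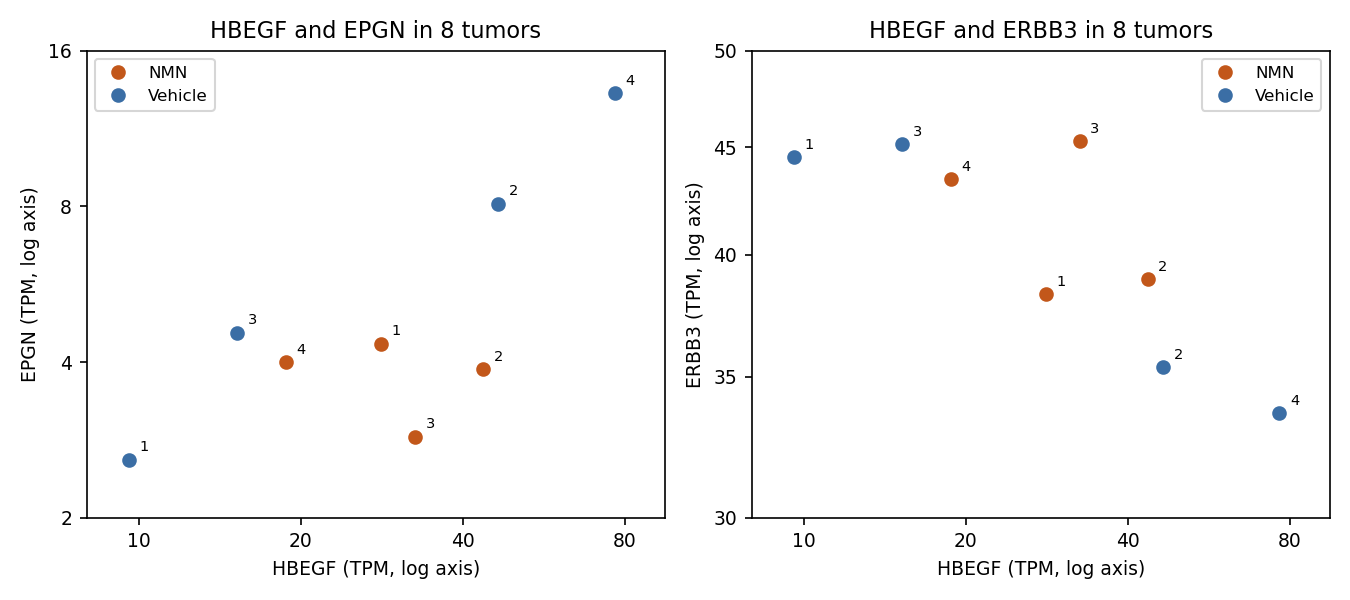
EPGN (left) and ERBB3 (right) in TPM (y axes, log) against HBEGF in TPM (x axes, log), with 1 point per tumor, colored by group and numbered by replicate. Vehicle tumors run from low HBEGF and EPGN in Vehicle 1 (9.58 and 2.59 TPM) to high values of both in Vehicle 4 (76.6 and 13.2 TPM), where ERBB3 is lowest, at 33.6 TPM.

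The rest of the pathway was read in 6 lists of 64 genes, of which 63 were in the table and 61 were tested. None passed over all genes (0 of 61, beside 0% of all tested genes), and limma's adjusted p ran from 0.348 to 0.999. The mean log2 level was higher in the NMN tumors for 39 genes and lower for 22, and the median log2 fold change was 0.07. Without adjustment 4 of them, or 6.56%, had a p under 0.05, near the 6.94% of all genes. Groups did not overlap in 3 genes, or 4.92%, beside 3.05%.

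The other ligands of the family had mean levels over the 8 tumors below that of EPGN (5.45 TPM), with NRG4 close to it (5.22 TPM). EGF, the founding ligand of EGFR, was at 1.06 to 2.38 TPM in the NMN tumors and 1.11 to 1.61 TPM in the Vehicle tumors. The neuregulin genes NRG1 and NRG4, whose products bind ERBB3 or ERBB4, averaged 2.95 ± 1.12 and 5.44 ± 1.39 TPM in the NMN tumors and 4.24 ± 1.55 and 5.01 ± 0.628 TPM in the Vehicle tumors. NRG1 was highest in Vehicle 4, at 6.54 TPM, as were HBEGF, EREG and EPGN. NRG2 was at 0.32 to 1.05 TPM in the NMN tumors and 0.34 to 0.61 TPM in the Vehicle tumors, under the level required for the test.

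Of 9 genes for sheddases and their regulators, NMN tumors had the higher mean log2 level in 6 and the lower in 3. The median log2 fold change was 0.08. The metalloprotease gene ADAM15 was at 92.0 ± 14.8 TPM in the NMN tumors and 75.8 ± 11.5 TPM in the Vehicle tumors. ADAM12, another metalloprotease gene, and RHBDL2, a rhomboid protease gene, had log2 fold changes of 0.22 ± 0.22 and 0.25 ± 0.15.

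Of 13 negative regulators of EGFR, NMN tumors had the higher mean log2 level in 10 and the lower in 3. The median log2 fold change was 0.10. The largest log2 fold change in this list was 0.24, beside 1.22 for ERRFI1. SOCS5, a suppressor of cytokine signaling that also acts on EGFR, was at 9.98 to 10.9 TPM in the NMN tumors and 7.42 to 9.71 TPM in the Vehicle tumors, without overlap. The phosphatase gene PTPN2 and the ubiquitin ligase gene CBL had log2 fold changes of 0.19 ± 0.11 and 0.23 ± 0.19.

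Of 10 genes for endocytosis and sorting of EGFR, NMN tumors had the higher mean log2 level in 7 and the lower in 3. The median log2 fold change was 0.06. EPS15, an endocytic substrate of EGFR, was at 19.6 to 22.6 TPM in the NMN tumors and 15.3 to 18.6 TPM in the Vehicle tumors, again without overlap (limma adjusted p = 0.603). UBASH3B, which restrains receptor degradation, and SH3KBP1, a CBL partner in endocytosis, had log2 fold changes of 0.33 ± 0.19 and -0.31 ± 0.16.

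Of 12 receptor-proximal effectors, NMN tumors had the higher mean log2 level in 7 and the lower in 5. The median log2 fold change was 0.03. PLCG1, the phospholipase C gamma gene, was at 47.5 to 53.5 TPM in the NMN tumors and 39.6 to 46.8 TPM in the Vehicle tumors, without overlap (limma adjusted p = 0.687). The docking protein gene GAB1 and the PI3K subunit gene PIK3CB had log2 fold changes of 0.30 ± 0.15 and 0.13 ± 0.13.

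Of 14 ERK output and feedback genes, NMN tumors had the higher mean log2 level in 7 and the lower in 7. The median log2 fold change was 0.01. The early response genes IER3 and EGR1 had log2 fold changes of 0.95 ± 0.26 and 0.84 ± 0.32 (limma adjusted p = 0.348 and 0.584), and the cyclin gene CCND1 one of -0.38 ± 0.18. NMN 4 lay within the Vehicle range for each of these 3, unlike for ERRFI1.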

How the data were processed

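RNA was measured by sequencing of whole tumors, 4 of the NMN group and 4 of the Vehicle group, grouped by the sample titles. The authors deposited TPM values per gene in 1 table, with the unit per the file headers, and each library sums to about 1000000. Tools in the submitters' processing notes are RSEM 1.2.8, Bowtie2 2.2.5 and HISAT2 2.1.0, with the build GRCh38.p13 and no roles. Read depth cannot be had from TPM, so it is unknown, and counting error could not be computed. Genes at 1 TPM or more in at least 4 libraries were tested with limma 3.58.1 in R 4.3.3 on log2(TPM + 1), with a variance trend and group as the only term. Gene positions are from GENCODE 29 on GRCh38, and promoter sequences from RefSeq on GRCh38.p14.

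The members, the lists and the tests were chosen with earlier results of these data known. The rule for named genes takes all 10 members, up to 3 genes of each of the 6 pathway lists with the smallest unadjusted p, and the 5 genes most like ERRFI1. KRT19, KRT8, KRT5, KRT14, KRT17, KRT18, CDH1 and EPCAM and the genes most like HBEGF were named after their values were seen. The alternatives tried were the pseudocounts 0.1 and 5, a filter at 5 TPM or none, quantile normalization, scaling by median of ratios, estimated library weights, a robust fit, no trend, a block for the replicate number, and each tumor left out.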

Additional observations from a re-analysis of the deposited data

Results flagged for a closer look

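A tumor was marked when its gap to the nearest other tumor of its group exceeded 0.83 of the group's range, which chance gives in about 1 of 20 groups. Among 56 groups of 4 values (28 genes in both groups), 3 were marked. EREG in Vehicle 4, at 11.13 TPM, lay far above the 4.19 to 5.06 TPM of the other Vehicle tumors. NRG1 in Vehicle 4, at 6.54 TPM, lay above their 3.18 to 3.70 TPM. BTC in NMN 4, at 5.77 TPM, stood out because NMN 1 to 3 lay between 4.83 and 4.85 TPM, and it was close to the 5.4 TPM of Vehicle 1.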

How the results depend on the processing

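The count of 0 genes that passed held under 8 other settings, and was 54 with estimated library weights and 2 with the replicate block, with a range from 0 to 54 when 1 tumor was left out (54 without NMN 4, 1 without Vehicle 3). The replicate number did not pair the tumors: same-numbered tumors had correlations of their deviations of 0.03, 0.00, -0.03 and -0.12, and under the block none of the 10 genes passed (ERRFI1 adjusted p = 0.0670 by limma). ERRFI1, AREG, TGFA and EPGN kept their direction under every setting that could be run, but 1 tumor moved some values: AREG came to 0.17 when Vehicle 3 was omitted and 0.63 when Vehicle 2 was, and EPGN to -0.92 when Vehicle 1 was omitted and -0.26 when Vehicle 4 was. Near-zero fold changes turned: EREG to -0.0027 with a pseudocount of 5 and -0.016 with quantile normalization, ERBB2 to -0.00037 with median-of-ratios scaling and -0.12 with library weights, and ERBB3 to -0.011 with library weights. With 1 tumor left out log2 fold changes ran from -0.14 to 0.044 for EGFR, -0.10 to 0.15 for ERBB2, -0.00084 to 0.14 for ERBB3, -0.11 to 0.30 for EREG, -0.36 (without Vehicle 1) to 0.60 (without Vehicle 4) for HBEGF and -0.00069 to 0.19 for BTC. The count of neighbouring pairs in the order of levels that passed was 3 under both other pseudocounts. With 1 tumor left out it was 3, except 4 without NMN 2, the exception for ERBB2 and ERRFI1. EPGN minus BTC turned to -0.020 with a pseudocount of 0.1 and HBEGF minus TGFA to 0.010 with one of 5. With 1 tumor left out, the differences ran from -0.24 to 0.12 for EPGN minus BTC, -0.27 to 0.19 for HBEGF minus TGFA and -0.024 to 0.36 for ERRFI1 minus EGFR. EPGN and BTC were not tested with the filter at 5 TPM. The causes were not tested. Unknown depth limits the low genes most.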

Other observations

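The genes most like HBEGF over the 8 tumors, a search made after its spread had been seen, were CRCT1, SPRR2E, FOSL1, IL1A and SLC5A1, with Pearson correlations of log2 values between 0.974 and 0.987 and between 0.959 and 0.980 without Vehicle 4. CRCT1 and SPRR2E encode proteins of the cornified envelope of squamous epithelium, FOSL1 is a subunit of AP-1, IL1A a cytokine and SLC5A1 a sodium-glucose cotransporter. SPRR2E was at 415, 496, 398 and 207 TPM in NMN 1 to 4, against 148, 482, 194 and 910 TPM in Vehicle 1 to 4, and so followed the order of HBEGF closely, with its lowest value in Vehicle 1 and its highest in Vehicle 4. FOSL1 was at 34.7, 74.2, 54.5 and 32.5 TPM in NMN tumors and 12.9, 62.6, 25.5 and 107 TPM in Vehicle tumors. These genes had log2 fold changes of NMN over Vehicle between -0.06 and 0.25.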
